A study of Drosophila melanogaster with 40 samples.

Results

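The nuclear genes of the oxidative phosphorylation system were followed through 2 time courses of Drosophila S2 cells, an established embryonic line with haemocyte-like features. Loci were taken whose fly symbol names a subunit of NADH dehydrogenase (ND-, complex I), succinate dehydrogenase (SdhA to SdhD, complex II), the cytochrome bc1 complex (UQCR-, complex III), cytochrome c oxidase (COX4 to COX8, complex IV) or ATP synthase (ATPsyn, complex V), and whose mean was at least 0.9 FPKM in the course described. FPKM counts the sequenced fragments of a locus relative to its transcript length and to the reads mapped in the library. Of 87 loci with such a name, 64 passed at 25C, among 7531 loci that passed in all, and 64 passed at 28C, among 7363. The complexes I to V held 33, 4, 6, 9 and 12 members at 25C, and 34, 4, 7, 8 and 11 members at 28C. Both courses shared 62 members. Of the 64 members of each course, 7 lay in a locus that the assembly had joined with another gene, among them ATPsynC and ND-MLRQ, so that reads of the partner could not be separated.

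Each course comprised 20 libraries, 1 every 3 h from CT24 to CT81 (circadian time in h). The cells of the 25C course had passed at least a week of daily temperature cycles and a last medium change, then stayed at 25 °C in darkness, and their polyA RNA was sequenced. The cells of the 28C course had a shorter series of such cycles, then constant 28 °C, and their RNA was depleted of rRNA. No gene was altered in either course and neither had an untreated control group. Temperature, entrainment, medium, RNA selection and depth differed together between the courses and cannot be told apart, and the tables were normalised separately, so every test was made within a course and values of both are only set side by side. With 1 library per time point, each p-value rests on the scatter over time points, and neighbouring libraries are not replicates. At 25C the residuals around a straight line had a median lag-1 autocorrelation of 0.38 among members and 0.22 among all loci, and the tests treat libraries as independent, so that their p-values are too small where neighbours deviate together. For contrasts, a course was divided into 4 spans of 5 libraries, CT24 to CT36 (the first span), CT39 to CT51, CT54 to CT66 and CT69 to CT81 (the last span).

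In the mitochondrial inner membrane, complexes I and II pass electrons from NADH and succinate to ubiquinone, complex III passes them on to cytochrome c, and complex IV to oxygen. Complexes I, III and IV pump protons, and complex V uses the proton gradient to make ATP. Complex II is also an enzyme of the tricarboxylic acid cycle. Complexes I, III, IV and V each contain subunits encoded in the mitochondrial genome, which were not analysed here.

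The relative depth of the 25C libraries, read from loci with few reads, was 0.614 to 1.42 with no order in time (Spearman's rho -0.05), while their summed FPKM ranged from 978685 at CT27 to 1162420 at CT60 (rho with time 0.77). The libraries of the 28C course were sparser, with 4158 to 7185 loci above 0 against 10148 to 11478 at 25C, and their 10 highest loci held between 26.5% and 52.9% of the FPKM. Of the haemocyte markers, He was just above the limit at 25C, and srp, Pxn, Ppn, vkg, Col4a1 and crq lay between 33.8 and 347 FPKM, whereas Hml and NimC1 lay near 0, at 0.02 and 0.01 FPKM. The germline and testis markers vas, bam and aly and the muscle markers Mhc and up were between 0.02 and 0.15 FPKM. The muscle marker Mef2 had a mean of 7.69 FPKM. Of the 3 neuronal markers, elav had a mean of 6.65 FPKM, whereas nSyb and Syt1 were below 0.9 FPKM. The fat body markers Lsp2 and Fbp1 and the gonadal soma marker tj were below 0.9 FPKM too.

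Nearly all subunit genes were among the more abundant transcripts of S2 cells at 25C, with a median of 201 FPKM over the 64 members against 24.2 FPKM over all loci tested. The highest member was ATPsynC, the membrane subunit that forms the rotor ring of ATP synthase (1475 ± 369 FPKM, SD over 20 libraries), and ATPsyngamma, the central stalk, followed with 1300 ± 214 FPKM. In complex I the highest was ND-MLRQ (1075 ± 181 FPKM), whose mammalian counterpart is now counted with complex IV, and the lowest ND-AGGG (31.4 ± 4.01 FPKM). The ends of the other ranges were SdhB (214 FPKM) and SdhA (85.0 FPKM) in complex II, UQCR-Q (546 FPKM) and UQCR-14 (37.7 FPKM) in complex III, and COX5A (901 FPKM) and COX5BL (1.42 FPKM) in complex IV. These SDs include the change over time.

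Second copies of subunit genes, many of them known for testis expression, were nearly silent. Of 20 pairs of a subunit gene and a paralogue with the same symbol and an added L, in which ND-51 and COX7A each stand in 2 pairs, the subunit gene was a member at 25C in all 20 (37.7 to 904 FPKM) and 19 of the paralogues were below 0.9 FPKM. Of these, SdhAL, ND-24L, ND-20L and ND-B14.5AL were listed at 0 in all 20 libraries, whereas SdhA, ND-24, ND-20 and ND-B14.5A had means between 85.0 and 164 FPKM. At 28C, 18 of the paralogues were below the limit and 14 were at 0 in every library. Paralogues with near-identical stretches can exchange reads in the authors' counting, so their low values are uncertain.

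The members nearest to the limit were COX5BL (1.42 FPKM) and ATPsynepsilonL (1.80 FPKM) just inside at 25C, and COX7CL (0.832 FPKM), UQCR-11L (0.397 FPKM) and COX4L (0.386 FPKM) just outside. At 28C, ND-51L1 (0.916 FPKM) and UQCR-11L (1.64 FPKM) were just inside and COX5BL (0.609 FPKM) just outside. UQCR-11L owed this to 1 library, CT48, with 32.8 FPKM, and was at 0 in the other 19, and ND-51L1 was at 0 in 15 libraries. These entries are counted with the members but rest on very few reads.

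**Figure D1:**
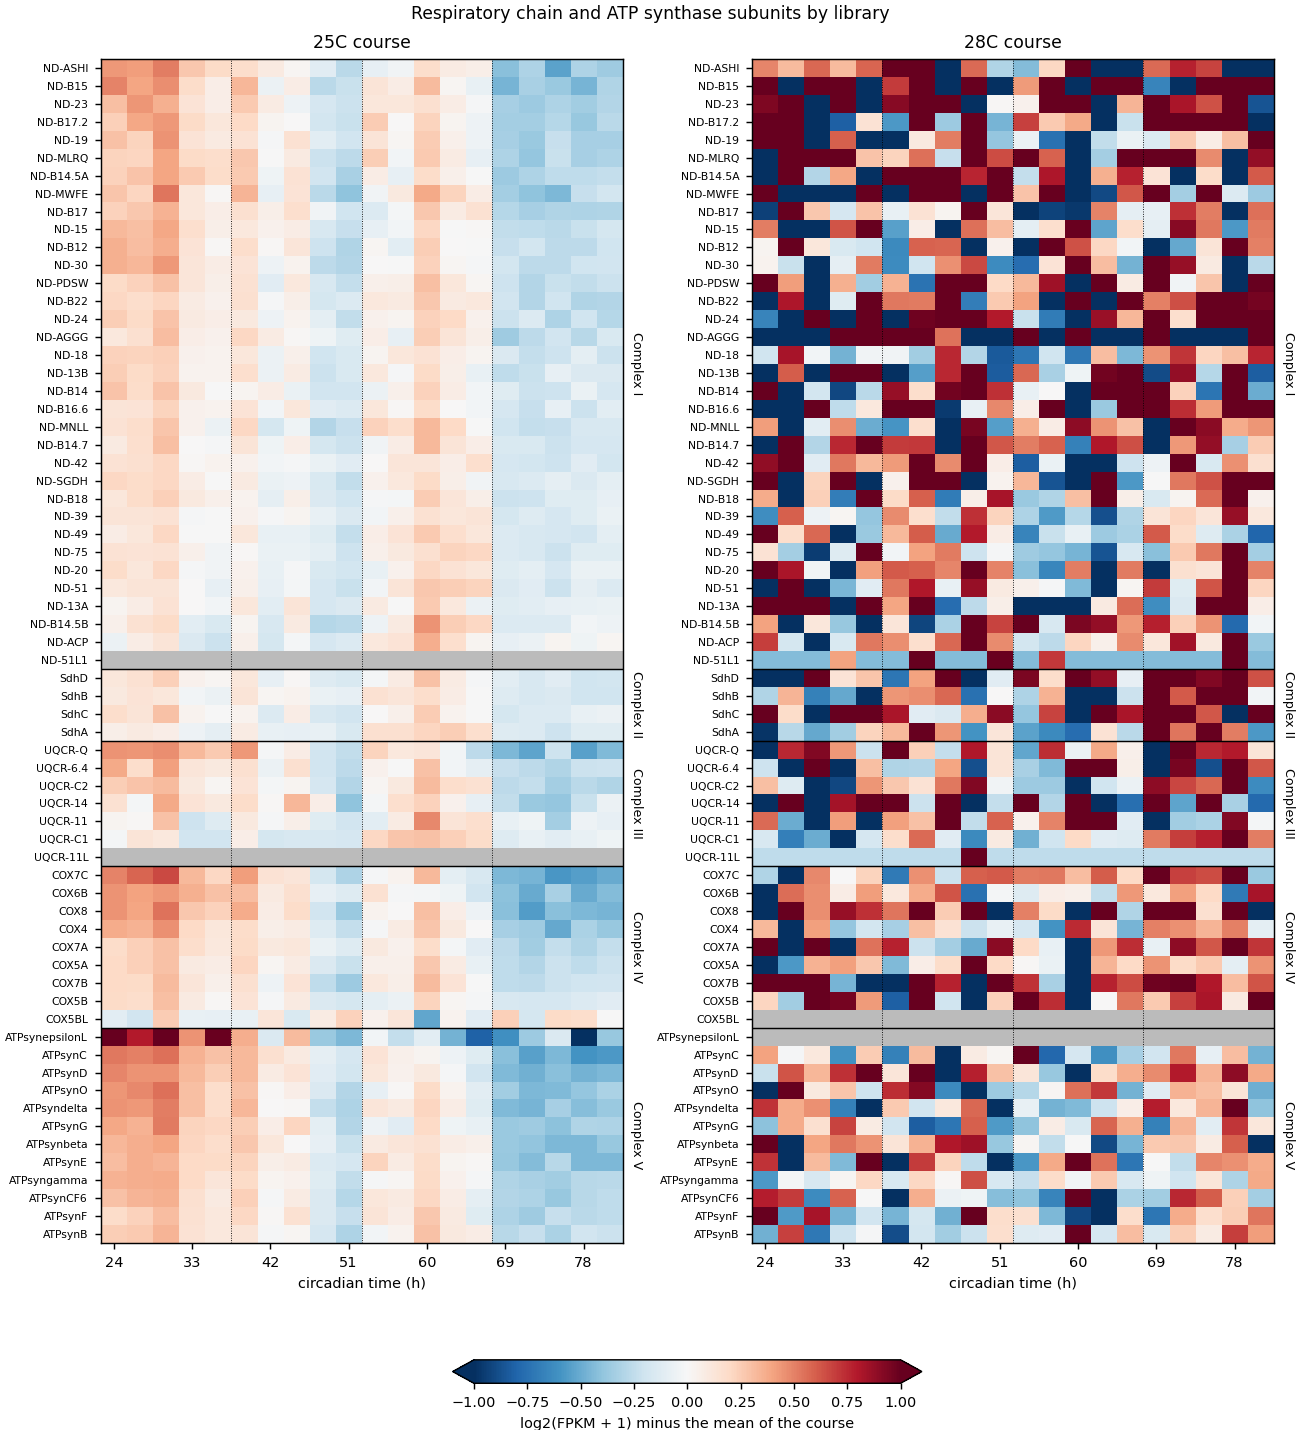
Level of each member in each library, as log2(FPKM + 1) minus the mean of its course; rows are genes by complex, ordered within a complex by their slope at 25C, columns are time points, dotted lines part the spans of a course, and grey marks a gene that was no member in that course. At 25C nearly every row runs from red at CT24 to CT30 to blue from CT69 on, with a paler red block at CT54 to CT66, while the rows at 28C show no common order.

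Transcripts of all 5 complexes fell over the 25C course. Of the 64 members, 52 fell and none rose in a linear model of log2(FPKM + 1) on time (limma, Benjamini-Hochberg over all loci tested, adjusted p under 0.05), with 0 rising at an unadjusted p under 0.05 too. Among all loci tested, 35.6% fell and 32.4% rose. The median slope of the members was -0.20 log2 units per 24 h against -0.01 over all loci. FPKM is relative to the reads of a library. In these bulk samples, fewer cells with high levels, less RNA per cell and a larger share of other transcripts cannot be told apart.

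The fall differed in size between the complexes as described by their medians. It was -0.15 per 24 h in complex I (25 of 33 fell), -0.10 in complex II (3 of 4), -0.19 in complex III (4 of 6), -0.23 in complex IV (8 of 9) and -0.33 in complex V, where 12 of 12 fell, with slopes between -0.75 and -0.20. The ranges of complexes II (-0.11 to -0.04) and V lay apart and all other ranges overlapped, and no test between complexes was made because members of a complex are not replicates. Across the 64 members, higher transcripts tended to have steeper slopes (Spearman's rho -0.38 between mean FPKM and slope, a description over genes that share the same 20 libraries). Abundance was also compared directly with loci of like level. Among members of 30 to 200 FPKM, 23 of 29 fell, beside 1247 of all 2725 loci in that range, and among members of 200 to 2100 FPKM 28 of 33 fell, beside 229 of 463.

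Among complex V members, ATPsynC fell most steeply of those above 2 FPKM. Its 5 values from CT24 to CT36 were 2062, 2028, 2097, 1823 and 1757 FPKM, and its 5 values from CT69 to CT81 were 1068, 982, 1047, 947 and 963 FPKM. The spans did not overlap, and the later level was far below the earlier (fold 0.514, -0.96 ± 0.08 SE on the log2 scale, limma adjusted p = 5.63e-09). The gene lies at chromosome 3R, from 27041867 to 27045352 (dm3), in a locus joined with mir-4949.

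The catalytic subunit ATPsynbeta had 598 to 696 FPKM in the first span (median 666) and 387 to 408 FPKM in the last (median 401), a fold of 0.614. ATPsyngamma fell from 1563 ± 122 to 1039 ± 23.3 FPKM (SD, n = 5 libraries each), with a fold of 0.667. ATPsynD, part of the stator stalk, fell from 555 ± 37.9 to 308 ± 5.63 FPKM, with a fold of 0.557. All 3 passed the limma test (adjusted p = 2.87e-08, 3.44e-07 and 2.26e-08), and in each the first and last spans lay apart.

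The steepest slope of all members belonged to ATPsynepsilonL, a low paralogue of the epsilon subunit, at -0.75 ± 0.11 per 24 h (limma adjusted p = 3.09e-06). Its values were 4.48, 3.38, 5.08, 2.45 and 4.02 FPKM in the first span and 0.651, 0.967, 1.29, 0.119 and 0.939 FPKM in the last. All first values lay above all last ones. With a mean of 1.80 FPKM, its fold of last against first span of 0.364, formed on the log2(FPKM + 1) scale, understates the change. At 28C it was at 0 in every library. It lies at chromosome 3R, from 5947495 to 5948042 (dm3).

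In complex IV the small subunit COX7C fell from 611, 647, 683, 543 and 499 FPKM in the first span to 317, 313, 289, 295 and 305 FPKM in the last. The groups lay apart, with a fold of 0.513 (-0.96 ± 0.12 SE, limma adjusted p = 6.92e-07). COX7C lies at chromosome 2R, from 5920809 to 5937571 (dm3). COX6B, on the outer face of the enzyme, fell from 750.1 ± 32.4 to 424 ± 22.5 FPKM with a slope of -0.41 ± 0.03 per 24 h (adjusted p = 3.69e-10). COX5A, which is the most abundant member of the complex, fell less, from 1014 ± 65.7 to 753 ± 16.4 FPKM. COX5BL was the exception of the complex, with a slope of 0.04 ± 0.06 per 24 h (adjusted p = 0.573) at a level of 1.42 FPKM.

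Complex III was divided. UQCR-Q, a small subunit close to the ubiquinone-binding part, fell from 698 ± 42.6 to 395 ± 38.4 FPKM between the first and last spans (fold 0.565, adjusted p = 1.89e-06), and its spans lay apart. UQCR-C1, a core subunit, had 224 to 280.2 FPKM in the first span and 234 to 248 FPKM in the last, and these overlapped (slope 0.02 ± 0.05 per 24 h, 95% interval -0.09 to 0.13, adjusted p = 0.781). Its partner core subunit UQCR-C2 fell (-0.20 per 24 h, adjusted p = 0.00188), and UQCR-11 did not pass (-0.03, adjusted p = 0.611).

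Complex II, the smallest set, had the smallest median changes, though single members of complexes I, III and IV changed less. SdhB, the iron-sulphur subunit, was 222 ± 13.4 FPKM in the first span and 190.1 ± 4.41 FPKM in the last, with no overlap (205 to 235 against 185 to 195 FPKM). The membrane anchors SdhC and SdhD fell from 231 to 194 FPKM and from 98.0 to 81.4 FPKM, and the flavoprotein SdhA from 85.7 to 76.5 FPKM. All 4 passed the contrast of the last against the first span (limma adjusted p = 0.000301, 0.00205, 0.000603 and 0.00188, with folds of 0.860, 0.845, 0.833 and 0.896). Over the whole course SdhA had a slope of -0.04 ± 0.04 per 24 h that did not pass (adjusted p = 0.363), and its highest values lay at CT54 to CT66. The slope of SdhC (-0.10 ± 0.04, adjusted p = 0.0266) did not pass without CT24 (adjusted p = 0.0673) or without CT30 (adjusted p = 0.0761), and that of SdhA passed without the 5 libraries of CT54 to CT66 (adjusted p = 0.000628).

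In complex I, the accessory subunit ND-ASHI fell most, from 123 to 153 FPKM in the first span to 73.9 to 86.6 FPKM in the last (slope -0.34 ± 0.05 per 24 h, adjusted p = 1.97e-06). ND-MLRQ went from 1254 ± 80.2 to 854 ± 34.8 FPKM, and ND-AGGG from 34.4 ± 2.71 to 26.1 ± 1.44 FPKM. A division by role was made after these values were seen and is given without a test. Of the 7 nuclear core subunits that carry the flavin, the iron-sulphur clusters and the ubiquinone site (ND-75, ND-51, ND-24, ND-49, ND-30, ND-20 and ND-23), 3 fell with a median slope of -0.08, and of the 26 accessory subunits 22 fell with a median of -0.16. The core subunits were also the lower ones, with a median of 91.8 FPKM against 157 FPKM. ND-ACP, the mitochondrial acyl carrier protein, which also serves fatty acid synthesis, had a slope of 0.04 ± 0.04 per 24 h (adjusted p = 0.467), with 365 to 464 FPKM in the first span and 401 to 432 FPKM in the last.

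Between the first and last spans, 58 of 64 members fell and none rose (limma, 0 rising at an unadjusted p under 0.05), where 37.4% of all loci fell and 33.5% rose. The calls were 30 of 33 in complex I, 4 of 4 in complex II, 4 of 6 in complex III, 8 of 9 in complex IV and 12 of 12 in complex V. The values of the first and last spans did not overlap in 59 of the 64 members, all 59 being lower in the last span. Of all loci, 32.2% were lower and 28.1% higher without overlap. The median change was -0.44 on the log2 scale. The members' share of the summed FPKM was highest at CT30 (2.59%) and lowest at CT81 (1.52%). The share of the 10 highest loci, by contrast, was lowest at CT24 (11.2%) and highest at CT60 (14.0%), with a Spearman's rho with time of 0.86, and its part in the fall was not tested. After rescaling by median of ratios, with factors of 0.987 to 1.02, 50 members fell over the course. Of the 7 haemocyte markers above the limit, 4 rose and 2 fell over the course, beside 32.4% and 35.6% of all loci. Their slopes lay between -0.39 and 0.67 per 24 h, with a median of 0.08. Pxn had the lowest slope (-0.39, limma adjusted p = 0.000402) and was 1 of 2 of these markers higher at CT54 to CT66 (0.58, adjusted p = 3.64e-05). Mef2, the only 1 of 3 muscle markers above the limit, fell as well (-0.19, adjusted p = 0.000117) and was higher at CT54 to CT66 (0.22, adjusted p = 0.00304). The only 1 of 3 neuronal markers above the limit, elav, rose (0.16, adjusted p = 0.000483). The part of the markers in the members' change was not tested.

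**Figure D2:**
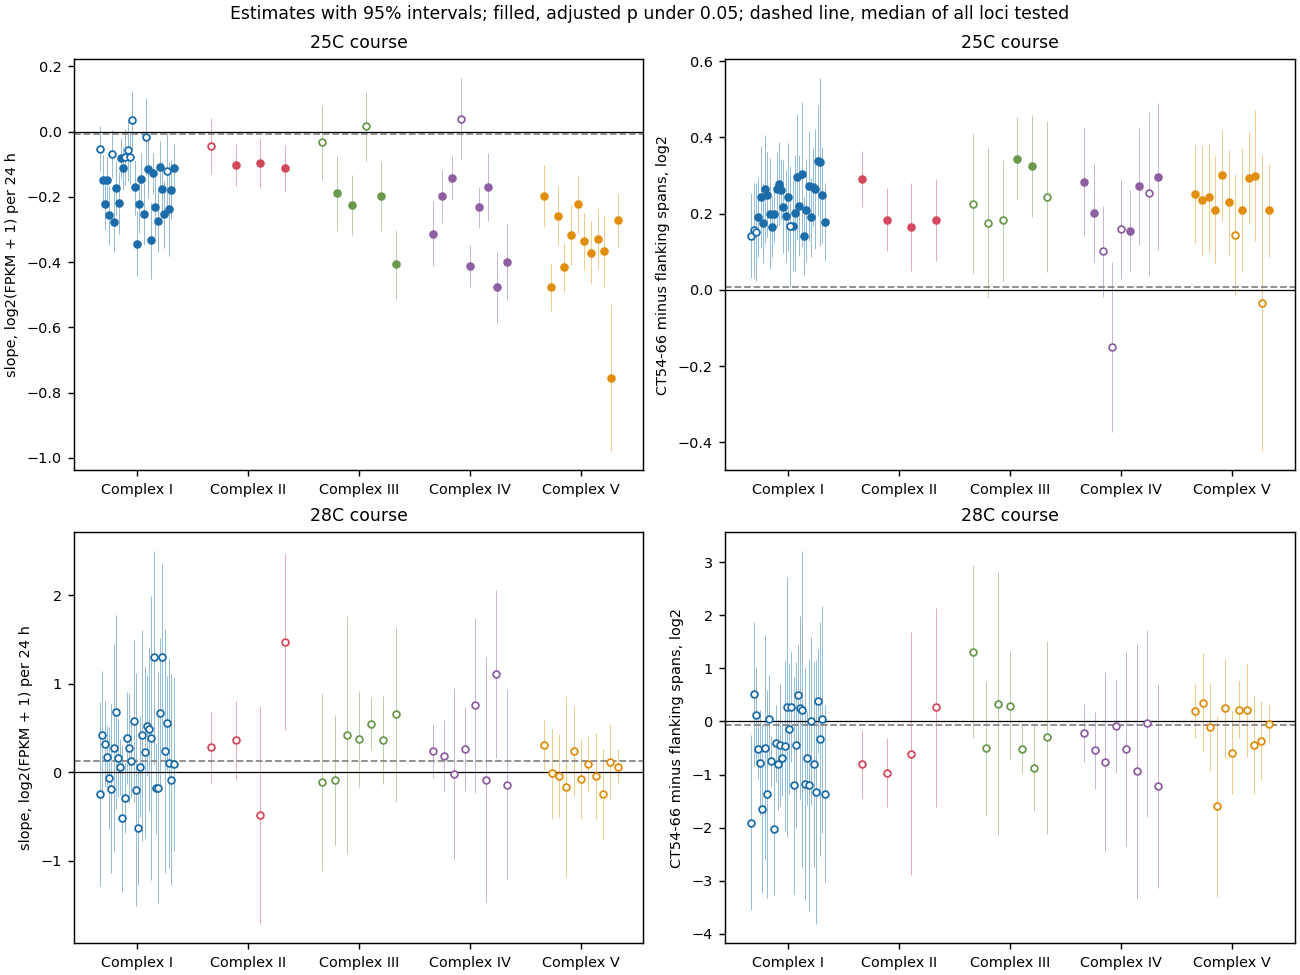
Estimate of each member (point) with its 95% interval (line), by complex, for the slope over time (left) and for CT54 to CT66 minus the flanking spans (right), at 25C (top) and 28C (bottom). Filled points had an adjusted p under 0.05 and the dashed line is the median of all loci tested. All 12 complex V members lie below 0 for the slope at 25C and intervals are several times wider at 28C, where the vertical scale is larger.

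The fall was not even. From CT51 to CT54, 63 of 64 members went up, by a median of 0.28 log2 units, and from CT66 to CT69, 62 went down, by a median of 0.25. Of all 7531 loci, 3866 went up and 3875 went down in these steps. Other steps were nearly as uniform and large. Down went 64 members from CT30 to CT33 (median 0.21) and 61 from CT45 to CT48 (0.23), and 61 went up from CT57 to CT60 (0.20). The median member stood 0.04, 0.05, 0.23, 0.07 and -0.01 log2 units from its course mean at CT54 to CT66. All 5 values were above those of CT48, CT51 and the last span, but 4 of them were below that of CT39 (0.16). Glycolytic transcripts, all 12 of which rose over the course and were lower in this block (32.4% and 12.8% of all loci), made the opposite steps: 12 of 12 went down from CT51 to CT54, by a median of 0.47, and 12 of 12 went up from CT66 to CT69, by 0.53. The block was chosen because earlier results of these data had shown glycolytic transcripts apart in it. Their values there are thus a description and no independent support. The members were measured in the same libraries. After a straight line was removed, their profiles ran opposite to the glycolytic ones (median correlation -0.65). The members' contrast over this block is thus not independent of that choice either. Nothing in the labels sets these 5 libraries apart.

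In the contrast of CT54 to CT66 against the mean of the spans on either side, 50 of 64 members were higher and none was lower (limma, 0 lower at an unadjusted p under 0.05, 59 higher), with a median of 0.22 on the log2 scale. Of all loci, 16.3% were higher and 12.8% lower. By complex, 29 of 33, 4 of 4, 2 of 6, 5 of 9 and 10 of 12 members were higher, and the medians lay between 0.18 and 0.24. Without the library of CT60, in which the summed FPKM was highest, 31 members passed in place of 50. Among loci of 30 to 200 FPKM, 26 of 29 members were higher beside 525 of 2725 loci, and at 200 to 2100 FPKM 24 of 33 members beside 90 of 463.

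UQCR-C1, at chromosome 3R from 10715953 to 10718109 (dm3), had the largest value of this contrast among members. Its levels were 296, 309.9, 314, 301 and 291 FPKM at CT54 to CT66. They were 226 to 268 FPKM in the span before and 234 to 248 FPKM in the span after, so the block stood apart from both sides (fold 1.27, 0.34 ± 0.05 SE, limma adjusted p = 0.00014). ND-MNLL, an accessory subunit of complex I, had 379.7 to 477 FPKM in the block, with 311 to 438 FPKM before and 322 to 341 FPKM after (0.34 ± 0.07, adjusted p = 0.00164). In SdhA the block held 94.6 to 100.4 FPKM against 76.0 to 89.5 and 73.1 to 77.7 FPKM, again with no overlap (fold 1.22, adjusted p = 2.4e-05). Of the core subunits of complex I, 7 of 7 were higher. These 3 members passed with any 1 library left out, whereas without CT60 ND-MLRQ, ND-AGGG, COX5A, SdhC and SdhD did not pass (adjusted p between 0.0503 and 0.116), nor did SdhC without CT48 or CT57 (adjusted p = 0.0512 and 0.0506).

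Of the members that fell most steeply, some passed this contrast and some did not. ATPsynC (0.23 ± 0.07, adjusted p = 0.0147) and ATPsynD (0.21 ± 0.07, adjusted p = 0.0261) were higher in the block. COX7C (0.25 ± 0.10, adjusted p = 0.0689), COX6B (0.16 ± 0.06, adjusted p = 0.062) and UQCR-Q (0.24 ± 0.09, adjusted p = 0.0589) did not pass, although all 3 estimates were above 0. COX7C and UQCR-Q passed without CT39 (adjusted p = 0.017 and 0.00667) or CT66 (adjusted p = 0.0482 and 0.0176), and UQCR-Q also without CT75 (adjusted p = 0.0374). The low paralogues COX5BL (-0.15 ± 0.11) and ATPsynepsilonL (-0.03 ± 0.19) were the members with an estimate below 0.

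**Figure D3:**
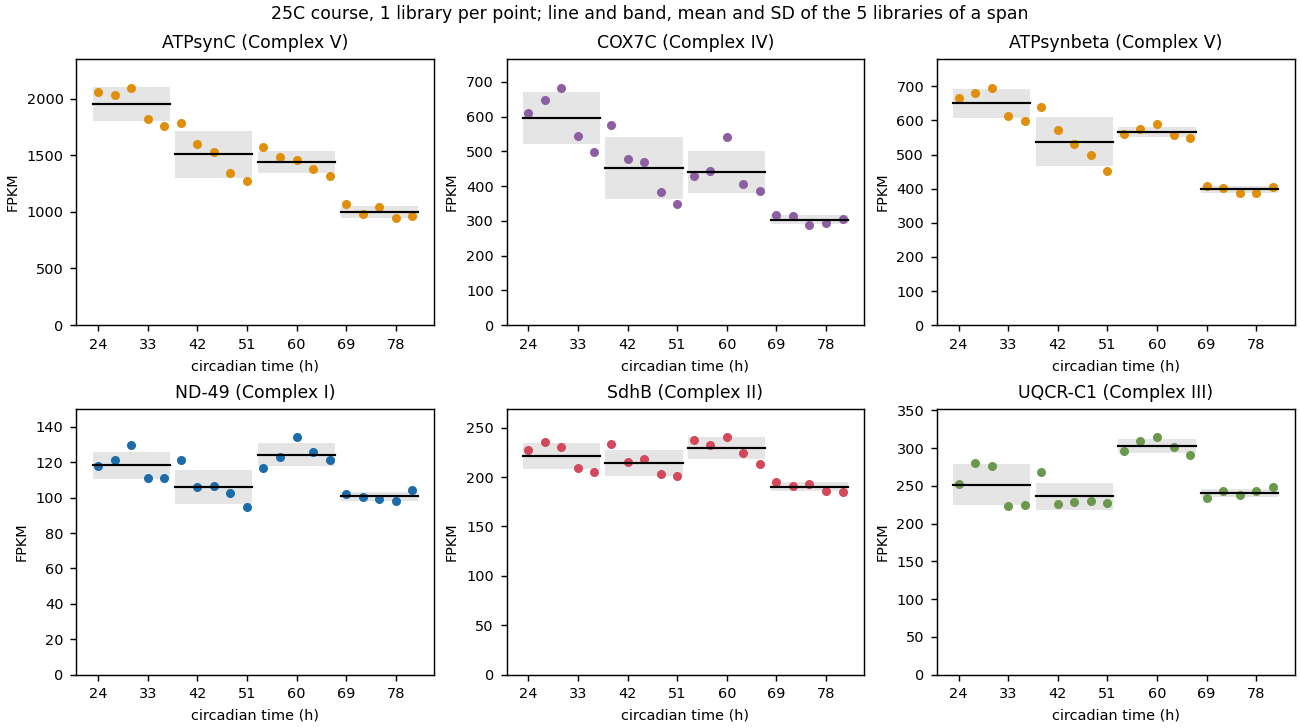
FPKM of 6 members in the 20 libraries of the 25C course (points), with the mean (line) and SD (band) of the 5 libraries of each span. ATPsynC, COX7C and ATPsynbeta end far below their start, ND-49 and SdhB end slightly below it, and UQCR-C1 ends near where it began but stands at 291 to 314 FPKM in the third span.

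Members moved together from library to library. After a straight line was removed from each profile, the median of the 2016 pairwise correlations among members was 0.83, with 1950 pairs above 0, against 0.05 between members and all other loci and -0.65 between members and glycolytic genes. These are descriptions across 20 shared libraries, and the block at CT54 to CT66 enters all of them. Complex V (0.88) and complex IV (0.86) had the highest median within a complex and complex III (0.69) the lowest. Pairs across complexes had medians between 0.75 and 0.87, so that a complex was not set apart from the others by its library-to-library changes.

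**Figure D4:**
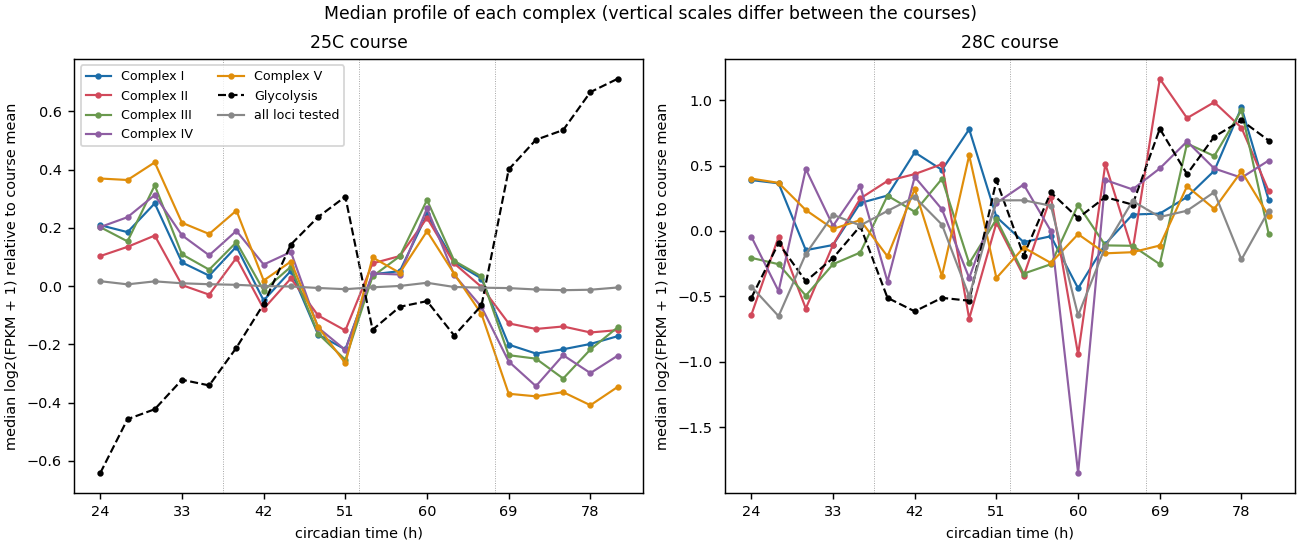
Median log2(FPKM + 1) of each complex relative to the course mean, with glycolytic genes (dashed) and all loci tested (grey), over circadian time at 25C (left) and 28C (right). At 25C the complexes run together, from a median of 0.31 over all members at CT30 to -0.26 at CT72, and mirror the glycolytic genes at CT54 and CT69, while at 28C the lines cross without a shared shape.

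Rhythm was asked with JTK-Cycle, a rank test against cosine curves, on profiles from which a straight line had been removed, with periods of 21, 24 and 27 h. At 25C it called 8 of 64 members (P under 0.05 after adjustment over the 24 reference curves), beside 4.81% of all loci. They were ND-49 (P = 0.0101), ND-75 and ND-SGDH of complex I (P = 0.0177 and 0.0303), and ATPsynC, ATPsynbeta, ATPsynCF6, ATPsyndelta and ATPsynB of complex V (P = 0.0177, 0.0177, 0.0233, 0.0303 and 0.0392). All 8 best curves had the period of 27 h, the longest offered, and peaked 7.5 to 10.5 h after CT24.

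No member passed when the P-values were also adjusted over all loci (Benjamini-Hochberg, smallest value 0.709 among members and 0.600 among all loci). ND-49 had its highest value at CT60 (134 FPKM), within 117 to 134 FPKM at CT54 to CT66, and the next at CT30 (129 FPKM). Its lowest was at CT51 (94.8 FPKM), a range of 1.42-fold. Without the 5 libraries of CT54 to CT66, an alternative added after seeing the data, 0 members were called at the same threshold. Leaving out 1 library at a time gave between 0 called members (without CT60) and 25 (without CT33). The shares of all loci called in these runs were not tallied. Whether the members' counts changed more than those of all loci was thus not tested.

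Subunits of the respiratory chain whose symbols do not follow the name pattern moved alike at 25C. Of 9 such loci above the limit, 8 fell, 0 rose and 8 were higher at CT54 to CT66 (limma, beside 35.6%, 32.4% and 16.3% of all loci), though 1 of them, Cisd2, is an iron-sulphur protein of the mitochondrial outer membrane and no subunit. The complex III subunit ox fell from 365 to 188 FPKM between the first and last spans, and the ATP synthase alpha and epsilon subunits blw and sun fell from 482 to 282 FPKM and from 769 to 443 FPKM. The Rieske protein RFeSP, cytochrome c1 (Cyt-c1) and the cytochrome c oxidase subunits levy and cype fell too (slopes -0.21, -0.25, -0.26 and -0.35 per 24 h). Cytochrome c itself (Cyt-c-p) was 1061 FPKM in the first and 1066 FPKM in the last span (slope 0.03 ± 0.05, adjusted p = 0.65) and was higher in the block (0.30, adjusted p = 0.000125).

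Of 72 mitochondrial ribosomal protein genes, whose products belong to the ribosome that makes the mitochondrially encoded subunits, 51 fell and 3 rose (35.6% and 32.4% of all loci), with a median slope of -0.16 per 24 h, whereas of 87 cytosolic ribosomal protein genes 6 fell and 69 rose. In the tricarboxylic acid cycle, where the list of 17 loci holds the 4 Sdh members, 11 fell and 1 rose, against the same shares of all loci. The block at CT54 to CT66 was not particular to the members. Of these 17 loci, 14 were higher there and 1 was lower. Of the mitochondrial ribosomal protein genes 33 were higher and 0 lower, and of the cytosolic ones 19 and 1 (16.3% and 12.8% of all loci). Citrate synthase (kdn) fell from 162 to 72.1 FPKM. All 12 glycolytic genes rose, up to Ldh, lactate dehydrogenase, from 40.7 to 1073 FPKM.

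At 28C levels scattered widely between libraries. Of the 64 members, 32 were at 0 in at least 1 library, and the highest value of a member was a median of 8.69 times its lowest where that could be formed, against 1.59 at 25C. Levels were lower in FPKM, with a median of 79.8 over members against 11.3 over all loci tested, and the members' share of the summed FPKM lay between 0.576% and 1.13%. The highest members were ATPsynC (419 FPKM), COX5A (246 FPKM), UQCR-6.4 (221 FPKM), ND-B12 (152 FPKM) and SdhC (81.7 FPKM) in their complexes, and the lowest above 2 FPKM in complexes II, IV and V were SdhD (29.8 FPKM), COX5B (71.3 FPKM) and ATPsynO (87.5 FPKM). The mean of ATPsynC was raised by 1 library, CT54, with 2645 FPKM, where the other 19 lay between 149 and 465 FPKM.

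No member had a trend at 28C that passed (limma, 0 rose and 0 fell of 64, with 7 up and 1 down at an unadjusted p under 0.05), where 1.15% of all loci rose and 0.122% fell by adjusted p. At the unadjusted threshold, 954 of all 7363 loci passed, counted in both directions. The median slope of members was 0.18 per 24 h and that of all loci tested 0.12. The median 95% interval reached 0.68 to either side of a slope, against 0.09 at 25C, so that a change of the size seen at 25C was not detectable. Medians by complex were 0.20, 0.32, 0.37, 0.21 and -0.02 for complexes I to V. Of the 62 genes in both courses, 51 fell at 25C by adjusted p. By sign alone, 41 had an estimate above 0 at 28C, where the median slope of all loci was above 0 too. These counts rest on unlike measures, and the courses were not compared by a test.

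Between the first and last spans of the 28C course 1 member of 64 rose and none fell (limma, 9 up and 0 down at an unadjusted p under 0.05), beside 2.08% and 0.462% of all loci by adjusted p. Without adjustment, 1072 of all 7363 loci passed in either direction. These counts do not set the members apart from all loci. The 1 member that rose was UQCR-C1, the core subunit of complex III whose slope did not pass at 25C. Its values were 121, 83.6, 95.4, 49.7 and 120.1 FPKM at CT24 to CT36 and 194, 218, 232, 283 and 192 FPKM at CT69 to CT81. The groups lay apart, with a fold of 2.46 (1.30 ± 0.26 SE, adjusted p = 0.00803), and this call held with any 1 library left out (adjusted p between 0.00374 and 0.0276). Its slope over the course was 0.55 ± 0.14 (adjusted p = 0.0578), which passed without CT24, CT39 or CT42 (adjusted p = 0.0483, 0.0448 and 0.0285).

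By adjusted p in this contrast, 3 members of complex II came next, and none of them passed. Estimates in complexes I and IV reached 2.79 and 2.15, with larger adjusted p. SdhB was 54.5 ± 21.2 FPKM in the first and 127 ± 38.9 FPKM in the last span, with 33.7 to 89.3 against 68.9 to 166 FPKM, which overlapped (1.22 ± 0.36, adjusted p = 0.0817). SdhA was 36.2 ± 11.2 against 71.0 ± 27.4 FPKM (adjusted p = 0.226), and SdhD 18.7 ± 21.3 against 50.6 ± 23.3 FPKM with 3 libraries at 0 (adjusted p = 0.223). SdhC had 18.8 to 130.2 FPKM in the first span and 0 to 165 FPKM in the last, and 2 of its 20 libraries were at 0. Without the libraries of CT48, whose 10 highest loci held 52.9% of the FPKM, and CT60, which had the fewest loci above 0, SdhB passed as well (adjusted p = 0.0388), as did the slope of UQCR-C1 (adjusted p = 0.0478). SdhB also passed without CT27, CT48 or CT81 alone (adjusted p = 0.0461, 0.0497 and 0.0357).

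In the contrast of CT54 to CT66 at 28C, 0 of 64 members were higher and 0 lower (limma, 0 up and 8 down at an unadjusted p under 0.05), as were 0.0% and 0.0% of all loci by adjusted p, and the median was -0.44, beside -0.06 over all loci. Unadjusted, 524 of all 7363 loci passed in either direction. The smallest adjusted p of a member was 0.344, and the median 95% interval reached 1.24 to either side, so that a difference of the size seen at 25C was not detectable. JTK-Cycle called 4 members, beside 1.86% of all loci: UQCR-C2 (P = 0.0233), SdhA (P = 0.0303), ND-MLRQ (P = 0.0392) and ND-42 (P = 0.0392). Their best periods were 27 h except for ND-MLRQ with 21 h, none was among the 8 called at 25C, and the smallest value adjusted over all loci was 1. The median correlation among members after removing a line was 0.02. Subunits outside the name pattern gave 0 calls of 9 in each of the 3 limma contrasts at 28C, with 1, 0 and 2 at an unadjusted p under 0.05.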

How the data were processed

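RNA from S2 cells was sequenced in 40 libraries (single-end), 20 per course. Per the labels and methods, the authors aligned reads to dm3 with TopHat2, assembled loci on RefSeq genes with Cufflinks tools, subsampled the 28C alignments, and deposited FPKM per locus, scaled by Cuffnorm separately for each course. Raw counts were not used, so that counting error is unknown. RefSeq accessions gave a symbol for 99.5% (25C) and 99.6% (28C) of tested loci.

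Tests used limma 3.58.1 (R 4.3.3, eBayes with trend) on log2(FPKM + 1) for loci with a mean of at least 0.9 FPKM, with Benjamini-Hochberg adjustment over all of them and a threshold of 0.05. They were the slope per 24 h, CT69 to CT81 minus CT24 to CT36, and CT54 to CT66 minus the mean of CT39 to CT51 and CT69 to CT81. JTK-Cycle was written anew with exact Kendall P-values, Bonferroni over 24 references and linear detrending of FPKM. The limma, JTK-Cycle and cosinor procedures were run on simulated profiles with independent normal scatter. Such profiles do not check the effect of autocorrelation between neighbouring libraries or of values at 0. Members, lists and tests were chosen with earlier results of these data known. Named genes were the highest and lowest member per complex, the 3 steepest called slopes each way, 2 each way of the span contrasts, JTK-Cycle calls, complex II, members near the limit and paralogue pairs. Genes of the lists, and ATPsyngamma, ATPsynD, COX6B, UQCR-C2, UQCR-11, ND-ACP and ND-ASHI, were chosen after their values were seen. Promoter motifs were not analysed here. Alternatives were another pseudocount, other filters, median of ratios scaling, Kendall's rank correlation, other detrending, a log2 scale, cosinor regression, and leaving out libraries. All 40 sample columns were used.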

Additional observations from a re-analysis of the deposited data

How the results depend on the processing

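At 25C the counts of members that fell (52 over the course, 58 between the outer spans) stayed within 1.5 times under a pseudocount of 0.1, both other filters, median of ratios scaling and Kendall's rank correlation (50 members, course only). Without CT54 to CT66, added after seeing the data, 59 fell in each. Leaving out 1 library at a time gave 50 to 55 and 58 to 59. The count higher at CT54 to CT66 went from 43 with no filter on low values to 54 with 0.9 FPKM required in every library, and from 31 (without CT60) to 59 (without CT39). All these counts are of members, and the shares of all loci under the alternatives were not tallied. The 8 JTK-Cycle calls at 25C became 4 without detrending, 20 with cosinor regression, 0 without CT54 to CT66 and 0 to 25 with 1 library left out. At 28C the 4 calls became 2 with quadratic detrending, median of ratios scaling or 0.9 FPKM in every library, 1 with cosinor regression, 1 without CT48 and CT60, and 0 to 4 with 1 library left out. With 0.9 FPKM in every library, or without CT48 and CT60, 1 member rose over the 28C course and 2 rose between its outer spans, and with 1 library left out these counts were 0 to 1 and 1 to 2. No estimate of a named member whose call passed turned its sign in any alternative run. SdhC, whose slope at 25C passed (adjusted p = 0.0266), did not pass with median of ratios scaling (0.0514) or Kendall's rank correlation (0.0507), and its CT54 to CT66 contrast did not pass with no filter (0.0507). The causes were not tested, except that leaving out libraries or loci changes the number compared. No paired analysis was possible because each time point of a course has 1 library and the courses were normalised separately. The 28C course was sparser, and 32 of its members had a library at 0. The part of depth in this was not tested.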

Other observations

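Of 16 regulators of mitochondrial genes tested at 25C, 5 rose and 6 fell (limma, adjusted p under 0.05), shares close to the 32.4% and 35.6% of all loci, so that the counts set the group apart in neither direction. The coactivator srl (spargel, the fly PGC-1 homologue) fell from 39.0 to 19.6 FPKM between the first and last spans (slope -0.49 ± 0.03 SE per 24 h, adjusted p = 4.22e-11). The mitochondrial transcription factors TFAM and mtTFB2 fell from 112 to 94.0 FPKM and from 11.0 to 7.36 FPKM. In the other direction, sima, the fly HIF-1 alpha, rose from 19.5 to 46.8 FPKM (0.60 ± 0.05 per 24 h, adjusted p = 2.51e-09) and was lower at CT54 to CT66 (-0.27, adjusted p = 0.0277). ewg, the fly NRF-1 homologue, rose from 10.2 to 16.4 FPKM. At 28C 0 of these 16 passed in any of the 3 limma contrasts (3, 3 and 2 at an unadjusted p under 0.05), and srl was at 22.5 FPKM in the first and 8.11 FPKM in the last span (limma adjusted p = 0.0837).

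Genes of transport across the mitochondrial membranes were divided at 25C. The locus that joins the ADP/ATP carriers sesB and Ant2 fell from 1044 to 576 FPKM and the outer membrane channel porin from 903 to 578 FPKM, with slopes of -0.42 and -0.30 per 24 h. The phosphate carrier Mpcp2 was at 486 FPKM in the first and 509 FPKM in the last span, a small rise that passed between the spans (0.07, adjusted p = 0.0412) but not as a slope (adjusted p = 0.0784), and it was higher at CT54 to CT66 (0.21, adjusted p = 2.06e-05). The uncoupling protein homologue Ucp4A rose from 12.6 to 15.9 FPKM (adjusted p = 4.35e-07). Among 16 loci of assembly factors, to which 17 of 37 listed symbols could be matched, 10 fell and 4 rose, beside 35.6% and 32.4% of all loci. Among those that rose, Sirup had a mean of 2380 FPKM against a list median of 41.0 FPKM and a slope of 2.01 per 24 h, and whether all its reads belong to it was not tested. Coa8 and Cox10, both of complex IV assembly, fell from 48.3 to 30.5 FPKM and from 42.8 to 28.1 FPKM, and Ttc19, of complex III assembly, rose from 9.31 to 14.6 FPKM.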
